A study of Rattus norvegicus with 20 samples.

Results

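Transcription factor genes of hypothalamic development were examined in the supraoptic nucleus (SON) of the rat. They were Foxb1, Pbx3, Otp, Sim1, Pou3f2, Arnt2, Fezf2, Rax and Meis2, 9 of the 32402 genes in the tables, and they were found by gene symbol. Foxb1 and Pbx3 were chosen by their changes in these same rats, so their values are given as a description with no test. The other 7 genes were listed for their role. The SON was taken as bilateral punches of the hypothalamus from male Wistar Han rats, and polyadenylated RNA was sequenced in 20 libraries. Adult rats were 3 months old and aged rats 18 months old, and rats of each age were either euhydrated (EH, with free access to water) or dehydrated (DH), with 5 rats in each of the 4 groups. The labels give 2 days of dehydration, whereas the methods of the study describe a longer period. No rat carried a transgene or a drug.

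These factors build and maintain the neuroendocrine hypothalamus. Otp and the dimer of Sim1 with Arnt2 act upstream of Pou3f2 (also called Brn2) in the lineage that yields the magnocellular neurones, the large neurones that make vasopressin (Avp) and oxytocin (Oxt). Fezf2 is a zinc finger repressor that patterns the forebrain, and in the cortex it specifies deep layer projection neurones. Pbx3 and Meis2 are homeodomain proteins of the TALE class that can bind DNA as partners, Foxb1 is a forkhead factor best known from the mammillary region, and Rax marks the early hypothalamus and the tanycytes of the third ventricle.

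The libraries held between 24268398 and 30348118 reads counted on genes. Of the 9 genes, 8 passed the filter on low values (a mean normalized count of at least 10 over the rats compared), and Rax did not. The tissue label was checked against its defining genes. All 10 magnocellular neurone markers were detected in every group, and Avp averaged 163773 ± 32462 normalized counts in the adult EH rats (SD, n = 5). Genes listed as markers of neighbouring tissue were also detected: none of 12 forebrain glutamatergic neurone markers and none of 7 suprachiasmatic markers matched was at 0 in any group. Detection alone does not show from which cells or tissue the reads came. In bulk tissue fewer cells of a type and less RNA per cell cannot be told apart.

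Promoter sequences were held for 6 of the 9 genes in the RefSeq table used (build GRCr8), namely Otp, Sim1, Pou3f2, Arnt2, Fezf2 and Rax. The 250 bases before the annotated start are shown for Sim1 and Fezf2, whose level passed a test in dehydration, and for Avp, the hormone gene of the lineage these factors specify. Capitals mark the letters TGACAG, the core bound by Meis proteins, on either strand.

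Sim1 (GRCr8, chr20:55410327-55410576, + strand): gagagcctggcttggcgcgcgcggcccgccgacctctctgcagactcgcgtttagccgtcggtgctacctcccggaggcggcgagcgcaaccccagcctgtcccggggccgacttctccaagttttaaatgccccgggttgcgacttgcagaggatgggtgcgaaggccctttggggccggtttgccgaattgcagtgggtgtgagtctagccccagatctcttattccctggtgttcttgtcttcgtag
Fezf2 (GRCr8, chr15:15203943-15204192, + strand): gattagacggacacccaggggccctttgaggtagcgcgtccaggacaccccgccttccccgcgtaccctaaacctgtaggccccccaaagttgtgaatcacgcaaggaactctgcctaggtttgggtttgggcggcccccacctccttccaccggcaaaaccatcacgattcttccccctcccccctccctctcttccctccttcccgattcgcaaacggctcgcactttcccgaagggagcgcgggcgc
Avp (GRCr8, chr3:138248523-138248772, − strand): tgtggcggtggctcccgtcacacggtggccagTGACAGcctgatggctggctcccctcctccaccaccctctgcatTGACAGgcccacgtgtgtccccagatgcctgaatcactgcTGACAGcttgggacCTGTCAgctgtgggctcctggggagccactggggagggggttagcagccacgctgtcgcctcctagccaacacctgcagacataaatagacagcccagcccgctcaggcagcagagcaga

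The Avp window held these letters 4 times, beginning 218, 174, 134 and 120 bases before the start, the last on the opposite strand, with none overlapping another. One copy or more stood in 15.8% of 33469 promoter windows of the same length, and 3 copies or more in 0.111%. The 6 member windows held no copy of it, and neither did those of Oxt, Trh and Sst, the other lineage peptide genes searched. They also held none of TACGTG (the core of the Sim1 and Arnt2 dimer, in 2.95% of all windows), ATGCAAAT (the octamer bound by POU proteins, 1.56%), TGACGTCA (the cAMP response element, 1.59%) or TATAAA (the TATA box, 12.9%). Both strands were searched, and the letters were chosen after the sequences had been seen.

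The first question was how the factors that define the magnocellular lineage stood in ageing, comparing aged EH with adult EH rats. Of the 7 genes not chosen for a change, 6 could be tested, and 0 passed the threshold (an adjusted p under 0.05 by limma), beside 5.99% of all 15369 genes tested. Their median log2 fold change was 0.01, against 0.00033 over all genes. At an unadjusted p under 0.05 limma called 3116 of all genes, and 0 of these 6, whose adjusted p ran from 0.543 to 0.907. edgeR and DESeq2 also called 0 of the 6.

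Otp, the homeodomain factor at the head of the lineage, had normalized counts of 953, 1153, 1154, 1192 and 1195 in the adult EH rats and 963, 998, 1047, 1112 and 1187 in the aged EH rats. The ranges overlapped along nearly their whole length through the lowest adult rat. The other adult rats began at 1153, above all but the highest aged rat. The log2 fold change was -0.09 ± 0.07 (SE, limma adjusted p = 0.543). Pou3f2, which drives terminal differentiation of these neurones, averaged 1282 ± 120.2 in adult and 1262 ± 46.9 in aged EH rats (SD, n = 5). Its log2 difference was -0.02, with a 95% interval from -0.14 to 0.11. Arnt2, the basic helix-loop-helix partner of Sim1, moved by 0.03, with an interval from -0.04 to 0.10. On these libraries the intervals of both genes lay close to 0 on either side.

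Sim1 had a log2 fold change of 0.10 ± 0.08 with age (limma adjusted p = 0.567), Fezf2 of 0.08 ± 0.09 (0.685) and Meis2 of -0.04 ± 0.08 (0.833). In each case the aged and adult ranges overlapped.

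Pbx3 had the highest age contrast of the 8 genes and was chosen by it. Its normalized counts were 1132, 1206, 1311, 1418 and 1500.3 in the adult EH rats and 1666, 1943, 1965, 2216 and 2761 in the aged EH rats. Every aged rat lay above every adult rat. The log2 fold change was 0.67 (95% interval 0.43 to 0.91), or 59.1% higher, and leaving out each rat in turn gave 0.57 to 0.75. Pbx3 was the 1 gene of the 8 whose age groups did not overlap, where 6.38% of all genes tested did not. Nothing is read from this count, the interval or the range, since the rule used that contrast. Foxb1 ranged from 89.7 to 129.8 in adult and from 66.1 to 129 in aged EH rats, and its log2 difference was -0.27 (95% interval -0.64 to 0.10), or -0.14 without aged EH replicate 2.

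Markers of other cells moved with age beside these values. Of 6 oligodendrocyte markers, 6 were lower and 4 of these called, among them Mobp (log2 fold change -0.37 ± 0.10) and Mog (-0.36 ± 0.07). Of 6 astrocyte markers, 5 were lower and 2 of these called (Aqp4 and Gja1, -0.26 and -0.28). Of 6 microglia markers, 6 were higher and 2 of these called (Cx3cr1 and P2ry12, 0.30 and 0.35). Of 10 magnocellular markers, 7 were higher and 3 of these called. They were Caprin2, an RNA-binding protein (0.88 ± 0.16), Pdyn, the dynorphin precursor (0.78 ± 0.13), and Scg2, a secretory granule protein (0.21 ± 0.06). The part of these marker shifts in the Pbx3 difference was not tested.

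**Figure D1:**
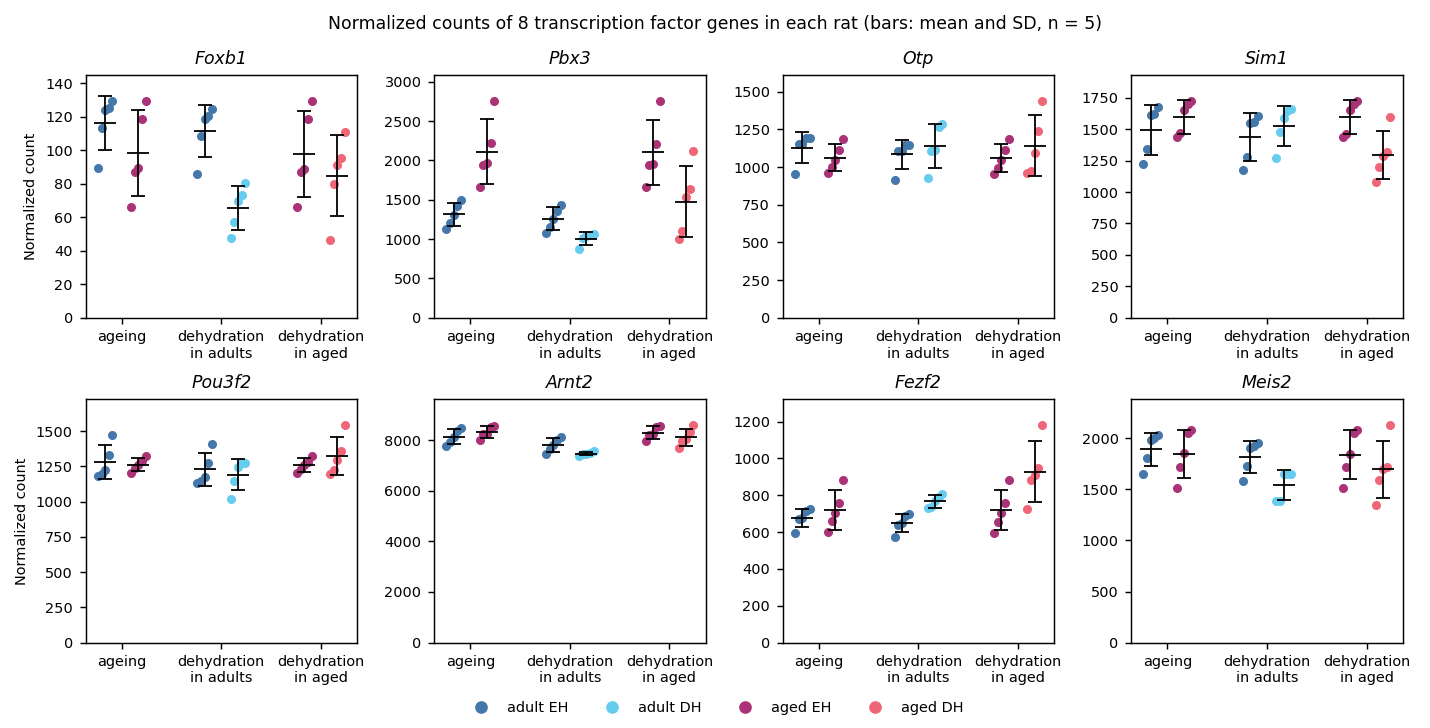
Normalized counts (vertical axes, from 0) of 8 genes in each rat, for the 3 comparisons, with the mean and SD of each group (n = 5). In adults, Foxb1 and Pbx3 are lower and Fezf2 higher in every DH rat than in every EH rat, and Pbx3 is higher in every aged EH rat than in every adult EH rat.

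The second question was how the same genes responded to dehydration in adult rats. Fezf2 rose and Meis2 fell, and the lineage factors Otp, Sim1, Pou3f2 and Arnt2 did not pass the test. Thus 2 of the 6 genes tested were called, 1 in each direction, beside 12.7% of all 15280 genes. The median log2 fold change of the 6 was 0.01, against -0.01 over all genes. Among all 8 genes, 3 had groups that did not overlap (Foxb1, Pbx3 and Fezf2), beside 10.9% of all genes tested; 2 of these 3 were chosen by their change.

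Fezf2 had normalized counts of 572, 641, 651, 685 and 696 in the adult EH rats and 732, 735, 766, 788 and 809 in the adult DH rats. Every dehydrated rat lay above every euhydrated rat. Its log2 fold change was 0.24 ± 0.06 (SE; limma adjusted p = 0.0133), or 18.2% higher, with a 95% interval from 0.12 to 0.36. The call was kept in every alternative run, over which the adjusted p ran from 0.00222 to 0.0488.

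Meis2 had 1583, 1731, 1902, 1922 and 1949.5 in the EH rats and 1384, 1384, 1646, 1648 and 1650.3 in the DH rats. The lowest EH rat lay inside the DH range, and the other 4 lay above it. Its log2 fold change was -0.24 ± 0.07 (limma adjusted p = 0.0408) (-15.1%). This call rested on the samples and settings. The limma adjusted p was 0.0515 to 0.101 without adult EH replicate 1, 2, 4 or 5 or without adult DH replicate 3 or 5. With the RNA integrity number (RIN) as a covariate the log2 fold change was -0.14 (limma adjusted p = 0.342). All adult EH rats had the same RIN, so the RIN term of that fit rests on the adult DH rats. Whether RIN or dehydration goes with the fall cannot be told from it.

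The lineage factors lay close together between the adult groups. Otp had 915, 1107, 1108, 1144 and 1144 in EH and 928, 1105, 1114, 1266 and 1284 in DH rats, a log2 fold change of 0.07 ± 0.09 (limma adjusted p = 0.673). Sim1 ran from 1178 to 1606 in EH and from 1270.3 to 1658 in DH rats, with a log2 fold change of 0.09 ± 0.09 (adjusted p = 0.559). Pou3f2 moved by -0.05, with a 95% interval from -0.20 to 0.11. Arnt2, counted most deeply, was 7807 ± 268 in EH and 7467 ± 74.0 in DH rats (SD, n = 5), a log2 fold change of -0.06 ± 0.03 (limma adjusted p = 0.160). It passed the test when counts were scaled to the library total (-0.09, adjusted p = 0.0454).

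Foxb1, chosen by its change, had 86.1, 109, 119, 120.3 and 124 in the EH rats and 47.4, 57, 69.6, 73.5 and 80.4 in the DH rats. The groups did not overlap, and the log2 fold change was -0.77 (95% interval -1.10 to -0.44) (-41.4%). Leaving out each rat in turn gave -0.86 to -0.66. The choice of the gene is not allowed for in this range or the interval. Pbx3 had 1084, 1159, 1257, 1360.1 and 1439.6 in EH and 872, 1017, 1034, 1049 and 1066 in DH rats. Its log2 fold change was -0.32 (95% interval -0.48 to -0.15), in the opposite direction to its age contrast. Both contrasts use the adult EH rats.

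The magnocellular markers rose in the same rats: 6 of 10 passed the test, led by Creb3l1, a transcription factor that regulates Avp (log2 fold change 1.91 ± 0.11), Caprin2 (1.82 ± 0.09) and Pdyn (1.04 ± 0.09). Their summed level was 229274 to 319557 in EH and 339598 to 448997 in DH rats, with no overlap, as for Fezf2. Slc17a6, the vesicular glutamate transporter of these neurones, moved by 0.07 ± 0.05 (limma adjusted p = 0.395). The paper describes Avp, Creb3l1, Caprin2 and Rasd1 as already known to respond to dehydration or osmotic stimulation. The choice of the list thus favoured a rise, which is not a measure of cell content. Of 4 blood markers, 4 were lower, with a median log2 fold change of -0.78, and 1 was called (Hba-a1, -0.81 ± 0.25). The blood markers summed to 10275 to 21520 in EH and 6444 to 15792 in DH rats. The part of these shifts in the Fezf2, Meis2, Foxb1 and Pbx3 values was not tested.

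The third question was the response to dehydration in aged rats. Sim1 fell, as the 1 gene called of 6 tested, beside 7.29% of all 15346 genes. The median log2 fold change of the 6 was 0.02, against -0.003 over all genes. None of the 8 genes had groups that did not overlap, beside 7.05% of all genes tested.

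Sim1 had normalized counts of 1438, 1458, 1649.5, 1696 and 1726 in the aged EH rats and 1084, 1201, 1288, 1316 and 1596 in the aged DH rats. Of the DH rats, 4 lay below every EH rat and 1 lay within the EH range. The log2 fold change was -0.30 ± 0.09 (SE; limma adjusted p = 0.0484) (-19.0%). The call was lost without aged EH replicate 1, 2, 4 or 5 or without aged DH replicate 1, 2, 5 or 6 (adjusted p 0.0532 to 0.107), while the log2 fold change stayed between -0.34 and -0.24 in those 8 fits.

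The other lineage factors and Meis2 did not pass the test in these rats. Otp ran from 956 to 1187 in EH and from 962 to 1441 in DH rats (log2 fold change 0.10 ± 0.10, limma adjusted p = 0.644). Arnt2 moved by -0.03, with a 95% interval from -0.11 to 0.04, and Pou3f2 by 0.07, with an interval from -0.07 to 0.20. Meis2 moved by -0.12 ± 0.11 (limma adjusted p = 0.566).

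Fezf2 had 597, 657, 703, 756 and 883 in the aged EH rats and 727, 881, 908, 947 and 1179.6 in the aged DH rats. The lowest DH rat lay inside the EH range. Its log2 fold change, 0.36 ± 0.12, did not pass the test (limma adjusted p = 0.0772), but did with DESeq2 (0.0230), without aged EH replicate 4 (0.0285) and without aged DH replicate 1 (0.0286).

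Pbx3 had 1666, 1941, 1952, 2213 and 2756 in the aged EH rats and 998, 1108, 1537, 1632 and 2117 in the aged DH rats. Of the DH rats, 4 lay below every EH rat. Its log2 fold change was -0.54 (95% interval -0.92 to -0.16). Foxb1 had 66, 87, 88.9, 119 and 129 in EH and 46.6, 80.2, 91.0, 95.6 and 111 in DH rats, and its log2 fold change was -0.22 (95% interval -0.70 to 0.26). Without aged DH replicate 1, which had the lowest value, it was -0.02.

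Forebrain glutamatergic markers fell in the same aged rats: 5 of 12 passed the test, namely Neurod6 (-2.49 ± 0.36), Slc17a7 (-1.92 ± 0.31), Neurod2 (-1.86 ± 0.37), Bcl11b (-0.56 ± 0.10) and Camk2a (-0.49 ± 0.09). Their summed level was 11229 to 15018 in EH and 7516 to 9822 in DH rats, with no overlap, whereas 0 of 12 passed in adult DH by limma. Of 10 magnocellular markers, 9 were higher and 5 of these called, led by Creb3l1 (1.30 ± 0.17). As in adults, the list held genes already known to respond to dehydration. Cck, a peptide cotransmitter, fell (-0.48 ± 0.13). Of 4 blood markers, 4 were lower, with a median log2 fold change of -0.70, and 1 was called (Hbb, -0.84 ± 0.23). The part of these shifts in the Sim1, Fezf2 and Pbx3 values was not tested.

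**Figure D2:**
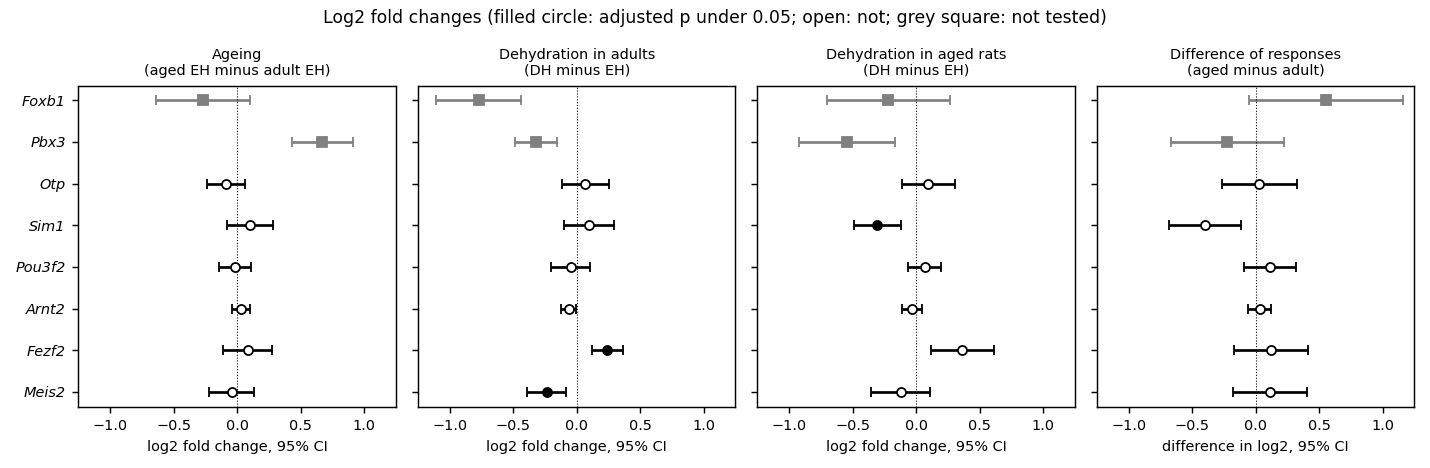
Log2 fold changes (horizontal axes) with 95% intervals for 8 genes in the 3 comparisons, and the difference between the dehydration responses of aged and adult rats. Filled circles passed the test (Fezf2 and Meis2 in adults, Sim1 in aged rats) and open circles did not. Grey squares mark the genes chosen by their changes, which were not tested. Their intervals do not allow for that choice.

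Whether the response to dehydration differed between the ages was tested over the 20 rats. None of the 6 genes passed, beside 0% of 15326 genes: limma called 0 and edgeR 0 of all genes, with 1522 at an unadjusted p under 0.05 by limma, Sim1 among them as 1 of the 6. Sim1 had the largest difference among the 6, with a response in aged rats less that in adult rats of -0.40 on the log2 scale (95% interval -0.69 to -0.11; limma adjusted p = 0.335). A call in one age and not in the other is therefore not shown to be a difference between the ages. The differences of the other 5 lay between 0.03 and 0.12. Foxb1 differed by 0.55 (95% interval -0.06 to 1.16) and Pbx3 by -0.22 (-0.67 to 0.22), as descriptions.

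On one scale over all 20 libraries, given as CPM of the reads scaled by TMM, each gene had its own order of groups. Foxb1 was highest in adult EH rats (4.16 ± 0.58), then aged EH (3.51 ± 0.92), aged DH (3.05 ± 0.86) and adult DH rats (2.44 ± 0.49; SD, n = 5). Only adult EH and adult DH did not overlap. Pbx3 ran from 75.3 ± 14.5 in aged EH through 53.2 ± 16.3 in aged DH and 46.9 ± 5.24 in adult EH to 37.4 ± 2.91 in adult DH rats. The neighbours aged DH and adult EH overlapped, as did aged EH and aged DH.

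Fezf2 was 24.1 ± 1.76 in adult EH, 25.7 ± 3.84 in aged EH, 28.5 ± 1.28 in adult DH and 33.4 ± 5.97 in aged DH rats, so that both dehydrated groups stood above both euhydrated ones in mean, with overlap at each step. Sim1 was lowest in aged DH rats (46.7 ± 7.03), and the other 3 groups lay between 53.3 and 57. Meis2 was lowest in adult DH (57.3 ± 5.47) and highest in adult EH rats (67.6 ± 5.81). Levels of different genes are not compared here, because the values are not per length.

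Counting error alone was small for most of these genes. At the mean depth of Foxb1 in adult DH rats, 63.4 reads, it amounts to 12.6% of the mean, and the rats varied by 20.1%. At that of Arnt2 in the same rats, 7237 reads, it amounts to 1.18%, and the rats varied by 0.835%. Intervals of counting error cover sampling of reads only.

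Rax was at or near 0 in every library. It had 1 read in each of 2 adult EH rats (replicates 2 and 6) and 0 reads in the other 18 libraries, where a count of 0 allows up to 3 reads. No fold is given. Of the tanycyte markers, the cells in which Rax is known, 8 of 10 passed the filter, and Cd59 rose with age (0.28 ± 0.04) and in adult DH (0.18 ± 0.04), while 0 passed in aged DH by limma.

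A wider list of 50 transcription factors of the hypothalamus and diencephalon was set beside them. Of these, 49 were matched and 34 identifiers passed the filter in each comparison, with Six6 in place of Onecut2 in aged DH. In ageing 1 was called, Sox2, a factor of neural progenitors and glia, which fell from 1869 ± 96.6 to 1656 ± 65.2 (log2 fold change -0.17 ± 0.04, limma adjusted p = 0.0332). In adult DH 3 fell: Sox2 (-0.30 ± 0.05), Nkx2-2, a factor of oligodendrocyte precursors and the ventral hypothalamus (-0.42 ± 0.12), and Barhl2, a factor of the posterior diencephalon (-0.94 ± 0.29). In aged DH 1 rose, one of 2 identifiers of Tcf7l2, an effector of Wnt signalling (0.39 ± 0.07), while the other moved by 0.20 ± 0.17. The medians of the list were -0.05, -0.05 and -0.01, and the shares called (2.94%, 8.82% and 2.94%) stood beside 5.99%, 12.7% and 7.29% of all genes. The call of Sox2 in ageing was lost when any of 6 rats was left out (replicates 1 and 4 of aged EH and 1, 2, 4 and 6 of adult EH). In adult DH 1 call was left without adult EH replicate 1 or 2 or adult DH replicate 1, 2 or 3.

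**Figure D3:**
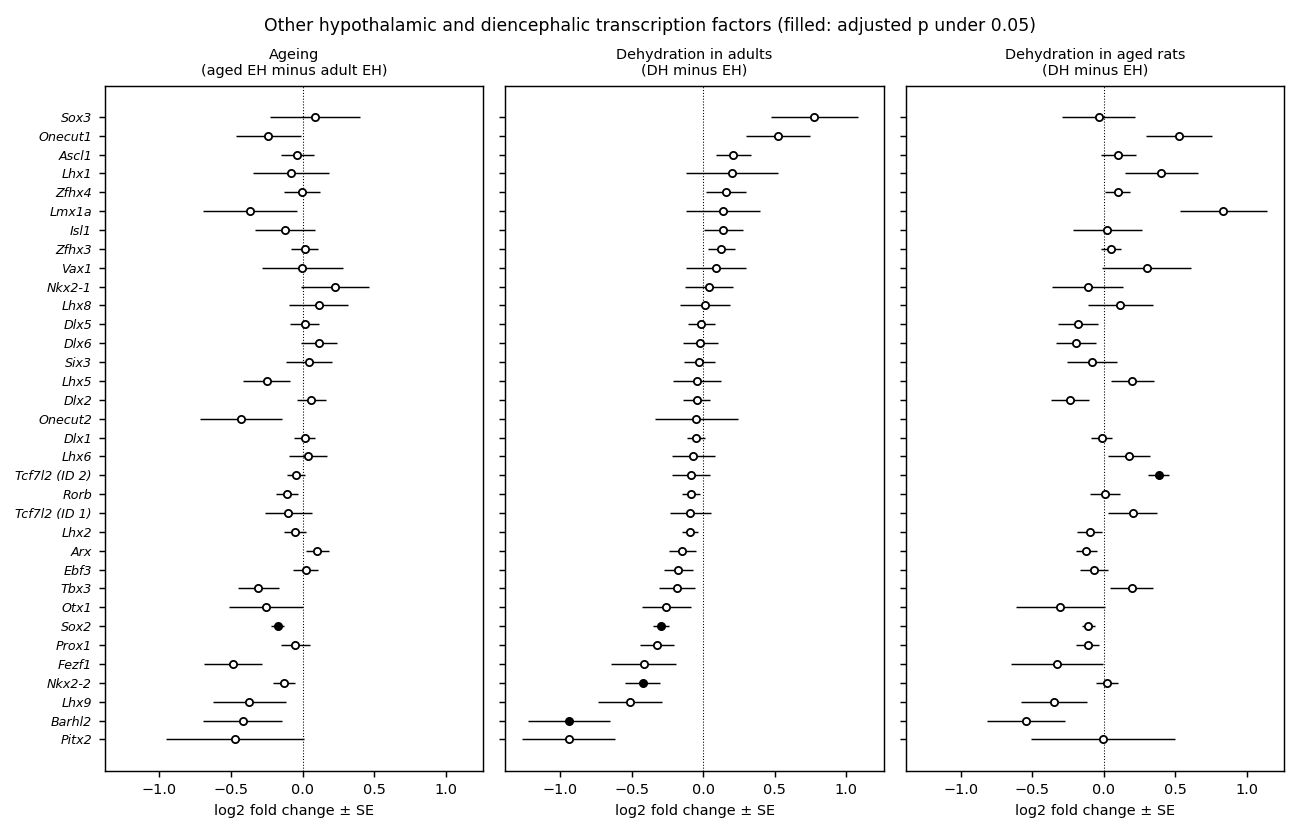
Log2 fold changes with standard errors (horizontal axes) of the 34 identifiers of the wider list that passed the filter in adult DH. They are shown for the 3 comparisons, ordered by their change in adult DH. Onecut2 did not pass in aged DH and has no point there. Six6, which passed in aged DH only, is not drawn. Filled points passed the test: Sox2 in ageing, Sox2, Nkx2-2 and Barhl2 in adult DH, and 1 identifier of Tcf7l2 in aged DH, with the others scattered on both sides of 0.

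Of 20 relatives of the 9 genes in their protein families, 18 passed the filter. None passed the test in ageing by limma. In aged DH, Pou3f1, a POU factor of the same class as Pou3f2, fell from 233 ± 22.0 to 126 ± 30.6 (log2 fold change -0.91 ± 0.15, limma adjusted p = 0.00242). Pknox2, a TALE factor that partners Pbx proteins, fell by 0.23 on the log2 scale (adjusted p = 0.0111).

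Of the 5 neuropeptide genes of the lineage, Avp rose in adult DH (0.48 ± 0.12, limma adjusted p = 0.0221) and Crh, which encodes the releasing hormone of the stress axis, in both adult (1.04 ± 0.23, adjusted p = 0.00936) and aged DH (0.99 ± 0.19, adjusted p = 0.00637). Oxt had a log2 fold change of 0.26 ± 0.07 in ageing, where it stood at the threshold: the adjusted p was 0.0524 by limma, 0.0487 by edgeR and 0.00627 by DESeq2. In adult and aged DH it had 0.17 and 0.14, which passed the test of none of the 3 tools (adjusted p 0.174 to 0.634). In the adult DH rats in which Avp rose, Otp, Sim1 and Pou3f2 did not pass the test. Meis2 was lower there, by a call that was lost with RIN as a covariate and without some single rats. A link between these genes and Avp was not tested.

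Within groups, the genes varied together to different degrees. With each rat expressed as its deviation from its group mean on the log2 scale, 24 of the 28 pairs of genes had a Pearson r above 0 over the 20 rats, 10 had one above 0.5, and the median was 0.385. Without the 2 most extreme rats of each pair, 19 had one above 0 and 4 one above 0.5, and the median was 0.198. Both values of a rat come from the same library at the same depth, and r is given as a description. No share over all pairs of genes is given beside these counts, so they are not read as particular to this set. The highest was between Otp and Arnt2 (0.738, Spearman rho 0.662, and 0.687 without the 2 most extreme rats), followed by Arnt2 and Fezf2 (0.728, rho 0.559, 0.525 without them). Sim1 and its partner Arnt2 had 0.243. The lowest was between Sim1 and Meis2 (-0.312).

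**Figure D4:**
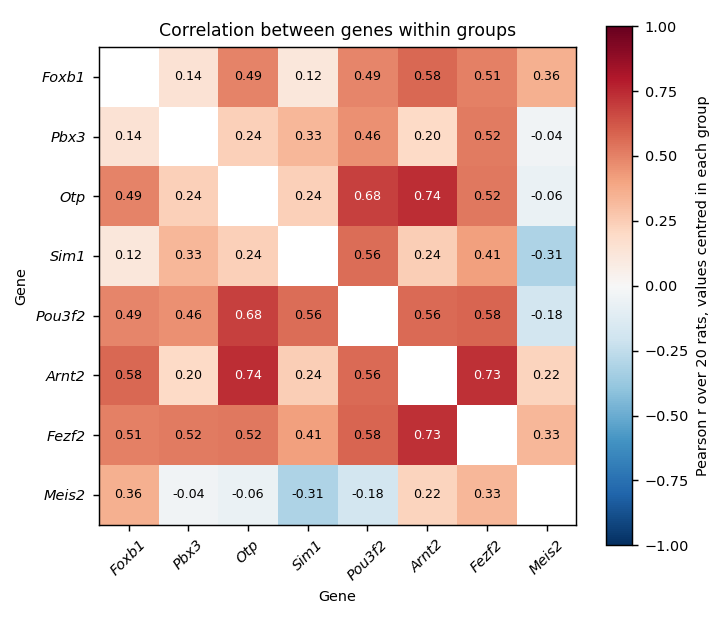
Pearson r (colour and number) between the log2 values of each pair of 8 genes over 20 rats, after centring in each group. The 6 pairs among Otp, Pou3f2, Arnt2 and Fezf2 have values from 0.52 to 0.74, or from 0.30 to 0.69 without the 2 most extreme rats of each pair, and Meis2 has values below 0 with Pbx3, Otp, Sim1 and Pou3f2.

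Several of the genes also varied with the magnocellular markers within groups. Some of these markers rise in dehydration, and whether their mean follows tissue content or activity was not tested. Against the mean of the 10 magnocellular markers, Fezf2 had a within-group r of 0.746 (rho 0.624, and 0.604 without the 2 most extreme rats), Pou3f2 of 0.602 and Sim1 of 0.599 (rho 0.602, 0.499 without them). Meis2 had 0.014. Against the mean of 3 GABA neurone markers every gene but Meis2 had a negative r. Pou3f2 had -0.647, Sim1 -0.603, Fezf2 -0.562, Otp -0.503, Foxb1 -0.473, Pbx3 -0.43 and Arnt2 -0.406. Meis2 had 0.312. Foxb1 had its most extreme r, -0.655, with the blood markers.

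**Figure D5:**
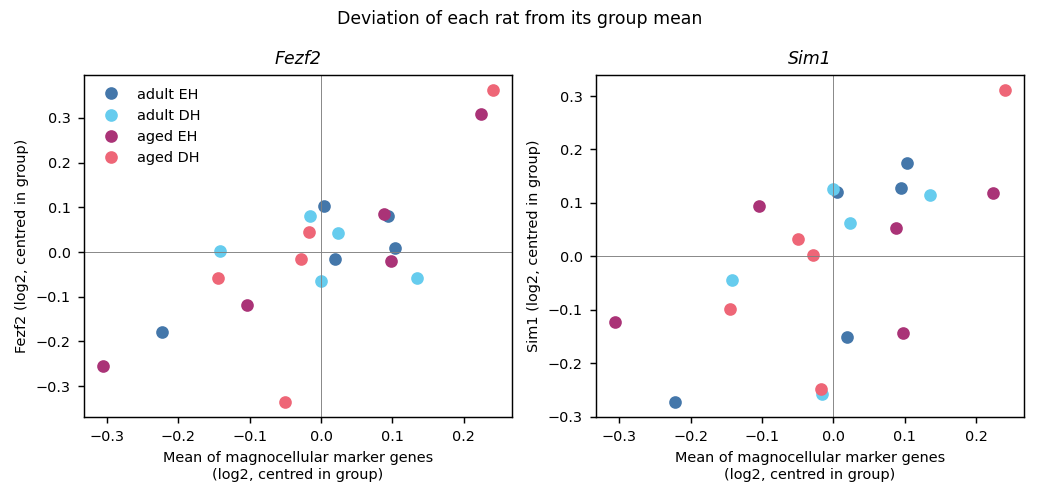
Deviation of each of 20 rats from its group mean in Fezf2 and Sim1 (vertical axes, log2) against that of the mean of 10 magnocellular markers (horizontal axes, log2), coloured by group. Rats with more marker signal than their group tend to have more Fezf2 (r = 0.746) and Sim1 (r = 0.599).

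For each gene, the 3 genes most like it in this measure were sought among 12575 with a mean of at least 50. Each r is among the highest of that search, so it is high in part by selection and is given as a description. Without the 2 most extreme rats, r of the genes named ran from 0.52 (Mdga1) to 0.857 (Kcnd3). Spearman rho ran from 0.516 (RGD1310951) to 0.881 (Pcp4). Sim1 was followed by Kcnd3, a potassium channel of the A-type current (r = 0.906), Pcp4, a calmodulin regulator (0.871), and Zdhhc2, a palmitoyl transferase (0.833). Pou3f2 was followed by Ebf3 (0.884), Foxb2 (0.809) and Hist1h2bq (0.807), of which the first 2 are transcription factors. Among those of Meis2 were Kif5a, a kinesin (0.870), and Incenp (0.851). Fezf2 was followed by Thy1 (0.884), Tmem59l (0.857) and Os9 (0.852).

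Otp was followed by Dcaf4 (0.826), Gss (0.819) and Tp53i11 (0.804), and Arnt2 by Glyr1 (0.837), Apba1 (0.824) and Flot2 (0.815). Foxb1 was followed by Jkamp (0.777), Fezf1 (0.767), another zinc finger factor of the developing hypothalamus, and Mdga1 (0.760). Pbx3 was followed by RGD1310951 (0.800), Zfp652 (0.770) and Axin2 (0.755), a target of Wnt signalling that fell in aged DH (log2 fold change -0.28, limma adjusted p = 0.00679).

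The remaining marker lists gave few calls. Of 4 ependymal, 4 endothelial and 3 GABA neurone markers that passed the filter, none was called in any comparison by limma. Among 7 suprachiasmatic markers, Prok2, a circadian output peptide, rose in adult (2.17 ± 0.25) and aged DH (1.76 ± 0.24), and Per2, a clock gene, rose in ageing (0.58 ± 0.09) and adult DH (0.32 ± 0.09), while Rgs16 fell in ageing (-0.31 ± 0.07). No astrocyte or microglia marker was called in dehydration by limma. Among oligodendrocyte markers Cnp fell in adult DH (-0.27 ± 0.07) and Mobp rose in aged DH (0.35 ± 0.07).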

How the data were processed

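SON punches of 20 rats were sequenced as paired-end polyadenylated RNA libraries. Per the labels and the methods of the study, the authors ran FastQC, STAR alignment to the Rn6 rat genome and gene counting by featureCounts, and normalized the result with size factors from DESeq2. The deposited files hold these normalized counts in 3 tables, one per comparison of 2 groups (the adult DH, aged DH and ageing tables), as a signal that is not a raw count. The authors' fold changes and p-values in the same tables were not used. Each library's values were whole multiples of one step (100% of values within 0.1 read), so reads were recovered; the 5 adult EH and 5 aged EH libraries that stand in 2 tables gave the same reads for all 32402 genes.

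Values were tested within each table as log2(normalized count + 1) with limma 3.58.1 (eBayes with trend, two-sided, Benjamini-Hochberg over all genes tested) in R 4.3.3, for genes with a mean of at least 10; a fold change is on this scale and understates that of low genes. "Called" means an adjusted p under 0.05 with no fold filter. The difference between the ages was fitted over all 20 rats, each valued from the DH table of its age. edgeR 4.0.16 and DESeq2 1.42.0 on the recovered reads were alternatives. The script was tested on simulated data. The groups came from the labels, and nothing in them pairs the rats. Replicate numbers are those of the sample titles. The genes, lists and tests were chosen with earlier results of these data known. Named genes were all 9 members, the 3 genes most like each, and the called genes of each list, at most 8 per list and comparison. A few genes that this rule selects are not reported here. Figures were drawn with matplotlib.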

Additional observations from a re-analysis of the deposited data

Results flagged for a closer look

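Among 32 sets of 5 values (8 genes in 4 groups), 2 held a rat far from the other 4 of its group, where chance marks about 1 set in 20. Otp in adult EH replicate 5 was at 953 normalized counts, while the other 4 rats lay between 1153 and 1195. Pbx3 in adult DH replicate 3 was at 872, while the other 4 lay between 1017 and 1066; without this rat the log2 fold change of Pbx3 in adult DH was -0.27.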

How the results depend on the processing

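No called fold change of a member reversed under the alternatives run. Of the uncalled ones, Otp and Sim1 in adult DH turned from 0.07 and 0.09 to -0.07 and -0.03 with RIN. The RIN term rests there on the adult DH rats, since all adult EH rats had the same RIN. The call of Fezf2 in adult DH was kept in all alternatives run. The adult DH count of members called fell from 2 to 1 with no filter on low values, without a trend in the moderation, with RIN as a covariate and with the replicate block, and was 1 to 2 when each rat was left out. In these Meis2 lost its call (adjusted p = 0.0535, 0.0951, 0.342 and 0.0613). The aged DH count of members called fell from 1 to 0 with no filter (Sim1 adjusted p = 0.0609), without a trend (0.124) and with RIN (0.0511), was 2 with DESeq2, and 0 to 2 when each rat was left out. The wider list gave 0 in ageing without a trend and with the replicate block (0 to 1 leaving out rats), and 1 in adult DH with no filter, without a trend and with the replicate block (1 to 4 leaving out rats); in aged DH it gave 1 to 2 leaving out rats, the 2 without aged EH replicate 2. The causes were not tested. Over all genes, the replicate block gave 824 calls in ageing, 980 in adult DH and 635 in aged DH against 921, 1934 and 1119, RIN gave 1005 in adult DH, and fits without a trend 516 in ageing and 671 in aged DH. Replicate numbers did not pair the rats: deviations of same-numbered rats correlated at -0.0825 to 0.134 in adult DH, -0.0616 to 0.162 in aged DH and -0.0484 to 0.124 in ageing. The difference between the ages, which was called for no gene here, gave 0 to 5 calls over all genes when each rat was left out, the 5 without aged EH replicate 6. The edgeR fit of this difference, and those of Oxt by edgeR and DESeq2, were added after the data had been seen.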
